A study of Mus musculus with 4 samples.

Results

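The classical and nonclassical MHC class I heavy chain genes and B2m, 9 genes in all, were read from an FPKM table of 34685 gene identifiers in 4 murine oral cancer cell lines. The 9 genes were chosen by name, and each had 1 entry in the table. They are the classical chains H2-K1 and H2-D1, the nonclassical chains H2-Q4, H2-Q6, H2-Q7, H2-T22, H2-T23 and H2-M3, and B2m, the light chain. AOC3 and AOC11 were established from primary oral tumors of 2 male C57BL/6 mice that received 7,12-dimethylbenzanthracene on the buccal mucosa, and AOC3-LN and AOC11-LN from lymph node metastases of the same respective mice. The cells were grown once as flank tumors in C57BL/6 mice, separated from fibroblasts with an isolation kit and cultured in serum-containing medium, and the labels name no treatment. RNA of each line was sequenced as 1 library. A comparison of single lines is therefore without replicates, and the lines of 1 mouse stand in for replicates where a test is given.

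A class I molecule is a heavy chain paired with the light chain beta-2-microglobulin, the product of B2m, around a short peptide from proteins of the cell. The classical chains H2-K and H2-D show these peptides to CD8+ T cells, and without B2m most heavy chains are not displayed stably at the surface. Nonclassical chains vary less between mouse strains and have narrower tasks. The H2-T23 product Qa-1 presents leader peptides of other class I chains to NKG2A receptors of natural killer cells, H2-M3 presents formylated peptides, and H2-T22 is a ligand of some gamma delta T cell receptors. Interferons and NF-kB signaling are known inducers of these genes in epithelial cells.

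All 8 epithelial markers passed the filter of 1 FPKM in at least 1 line used throughout, with Krt18 at 957 to 1322 FPKM, Krt8 at 815 to 1078, Epcam at 416 to 518 and Cdh1 at 144 to 183. The basal keratin gene Krt5 separated the mice, at 499 and 275 FPKM in AOC3 and AOC3-LN against 4.99 and 17.03 FPKM in AOC11 and AOC11-LN (log2 difference -5.19), and its part in the results was not tested. Of 15 leukocyte markers, 13 stayed under 1 FPKM in every line, and Ptprc, the pan-leukocyte gene, lay at 0.0640 FPKM or lower. The summed FPKM of these 15 markers was 14.5 and 9.50 in the lines AOC3 and AOC3-LN and 27.2 and 10.6 in AOC11 and AOC11-LN. It came mostly from Cd68 and Csf1r, which went opposite ways. Csf1r had 0.995 and 0.435 FPKM in AOC3 and AOC3-LN and 20.8 and 6.01 FPKM in AOC11 and AOC11-LN (log2 difference 2.81). It reached the filter only in AOC11 lines. Cd68 had 13.0, 8.79, 6.15 and 4.45 FPKM (log2 difference -1.01). The part of these markers in the results was not tested. Of 9 fibroblast markers 8 stayed under 1 FPKM, with Acta2 the exception at 5.79 FPKM in AOC11 and 6.97 in AOC11-LN, and the 6 endothelial markers were all under 1 FPKM. Class II chains H2-Aa, H2-Ab1 and H2-Eb1, which professional antigen-presenting cells carry, did not exceed 0.0844 FPKM. Of 11 class II genes listed 3 passed the filter, namely H2-DMa (2.90 to 5.63 FPKM), Cd74 and H2-DMb1. Cd74 had 0.160 and 0.119 FPKM in AOC3 and AOC3-LN and 0.788 and 3.25 FPKM in AOC11 and AOC11-LN (log2 difference 1.27). H2-DMb1 had 0.0561, 0, 0.896 and 1.85 FPKM (log2 difference 1.16). Both reached the filter only in AOC11-LN, and their part in the results was not tested. The estimated depth was 28300000 to 33800000 fragments per library. In a bulk library, fewer cells with a transcript and less transcript per cell cannot be told apart.

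The stretches upstream of the start sites are shown because 5 members hold an NF-kB motif there and 3 a full match to an interferon motif. They were taken from RefSeq promoters on GRCm38.p6, which held all 9 members, and each is 90 bases long, 5′ to 3′ on the strand of the gene. Capitals mark a match to the NF-kB motif GGGANTNCC or to the interferon-stimulated response element (ISRE) motif (TTTC, any 2 bases, TTTC), searched on both strands in the 250 bases before the start site. The stretches of H2-K1 (chr17:34000393-34000482, minus strand), H2-D1 (chr17:35262899-35262988, plus strand), H2-Q4 (chr17:35379419-35379508, plus strand), H2-Q6 (chr17:35424653-35424742, plus strand) and H2-Q7 (chr17:35438998-35439087, plus strand) hold the NF-kB letters.
H2-K1: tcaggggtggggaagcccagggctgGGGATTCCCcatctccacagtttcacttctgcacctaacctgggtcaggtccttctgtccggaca
H2-D1: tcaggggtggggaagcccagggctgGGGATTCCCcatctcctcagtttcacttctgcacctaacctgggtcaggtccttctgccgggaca
H2-Q4: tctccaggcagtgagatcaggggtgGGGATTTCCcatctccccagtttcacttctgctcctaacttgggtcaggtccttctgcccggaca
H2-Q6: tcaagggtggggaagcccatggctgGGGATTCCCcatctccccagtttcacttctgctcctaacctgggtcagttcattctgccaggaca
H2-Q7: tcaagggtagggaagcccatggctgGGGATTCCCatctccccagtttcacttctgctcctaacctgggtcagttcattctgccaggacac

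The stretches of H2-T22 (chr17:36042869-36042958, minus strand), H2-T23 (chr17:36032761-36032850, minus strand) and B2m (chr2:122147523-122147612, plus strand) hold the ISRE letters in full.
H2-T22: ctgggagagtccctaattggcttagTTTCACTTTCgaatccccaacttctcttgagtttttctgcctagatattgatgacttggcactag
H2-T23: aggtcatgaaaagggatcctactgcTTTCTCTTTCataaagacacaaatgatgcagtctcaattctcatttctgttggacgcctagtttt
B2m: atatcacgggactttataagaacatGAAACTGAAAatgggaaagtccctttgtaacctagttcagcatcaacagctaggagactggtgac

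The NF-kB letters were found in 5 of the 9 members and in 3.34% of 27025 mouse promoters of the same length. The ISRE letters were found in 3 members and in 3.04% of promoters. H2-M3 held neither in full. Near matches were not counted. The letters gtttcacttct, close to the ISRE motif, follow the NF-kB letters in H2-K1, H2-D1, H2-Q4, H2-Q6 and H2-Q7. They also lie upstream of H2-M3. The B2m stretch holds gggaaagtccc, which is close to the NF-kB motif. The counts therefore do not show that a member lacks either kind of element. The H2-K1 and H2-D1 stretches were identical at 87 of 90 bases (96.7%), and those of H2-K1 and H2-Q6 at 82 of 90 (91.1%). CCAAT, the letters bound by NF-Y, was present upstream of all 9 members and in 34.5% of promoters. TGACGC, a cyclic AMP response element-like sequence, was present upstream of H2-K1, H2-D1 and H2-M3 and in 6.14% of promoters. The related letters TGACGT, which were not searched for, also lie upstream of H2-Q4, H2-Q7 and H2-T22. The H2-T22 and H2-T23 stretches, aligned at the motif, were identical at 31 of 90 bases (34.4%). A match of letters is not evidence of binding. H2-K1, H2-D1, H2-Q4, H2-Q6 and H2-Q7 shared the NF-kB letters, and how any of these motifs relates to the levels below was not tested.

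The classical chains were abundant and nearly level across the lines. H2-K1 (ENSMUSG00000061232.16, chromosome 17, 33996017 to 34000347 in mm10) had 424 and 385 FPKM in the lines AOC3 and AOC3-LN and 393 and 449 FPKM in AOC11 and AOC11-LN. Its highest line exceeded its lowest by 1.16-fold, and the AOC3 and AOC11 lines overlapped. H2-D1 (ENSMUSG00000073411.11, chromosome 17, 35262730 to 35267499) stood at 198, 192, 163 and 173 FPKM, with lines ordered likewise, a 1.22-fold range. Both AOC11 lines lay below both AOC3 lines for H2-D1, with a log2 difference of -0.22 (AOC11 lines minus AOC3 lines, on normalized log2(FPKM + 1), standard error 0.15). The FPKM ratio of H2-K1 to H2-D1 within a library ran from 2.01 in AOC3-LN to 2.60 in AOC11-LN.

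B2m (ENSMUSG00000060802.8, chromosome 2, 122147686 to 122153083) varied over a wider range than the classical chains. It had 459 and 272 FPKM in the lines AOC3 and AOC3-LN and 452 and 851 FPKM in AOC11 and AOC11-LN. The primary lines were within 1.02-fold of each other, while AOC11-LN exceeded AOC3-LN by 3.13-fold. The AOC3 and AOC11 lines overlapped, because AOC3 lay above AOC11. B2m has 1 annotated transcript and an estimated 5430 to 19296 fragments per library.

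**Figure D1:**
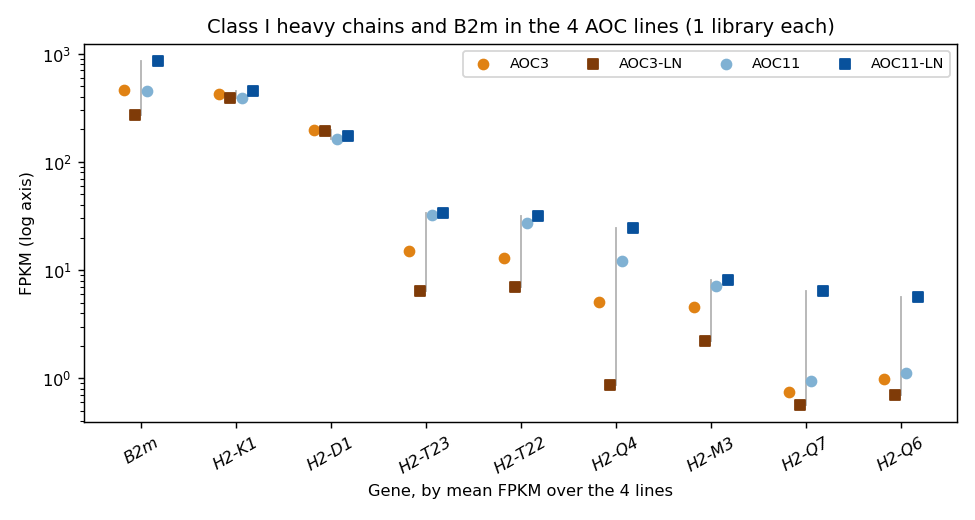
FPKM on a log axis for each of the 9 genes, ordered by mean, with 1 point per line and a grey bar from the lowest to the highest line. H2-K1 and H2-D1 points lie close together, B2m and the nonclassical chains spread apart, and AOC11-LN is highest and AOC3-LN lowest in 8 of 9 genes, all but H2-D1, an order that 15.1% of all genes tested had.

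The T region chains followed a common order. H2-T23 (ENSMUSG00000067212.8, chromosome 17, 36029773 to 36032855) had 15.1 and 6.40 FPKM in the lines AOC3 and AOC3-LN and 32.0 and 33.5 FPKM in AOC11 and AOC11-LN. H2-T22 (ENSMUSG00000056116.18, chromosome 17, 36037128 to 36042747) stood at 12.9, 6.92, 27.0 and 31.5 FPKM, with lines ordered likewise. For both genes each AOC11 line lay above each AOC3 line, the AOC11 lines differed little from each other, and AOC3-LN lay lowest. H2-T23 and H2-T22 stayed near a fixed proportion, with an H2-T23 to H2-T22 ratio of 0.925 to 1.19 over the 4 lines. Both are neighbors in the genome, yet of the 100-base windows of H2-T22 14.2% occur in a transcript of another gene, mostly H2-T10 (9.81%), and of H2-T23 7.28%. H2-M3 (ENSMUSG00000016206.6, chromosome 17, 37270220 to 37274484) had 4.58 and 2.20 FPKM in the lines AOC3 and AOC3-LN and 7.21 and 8.07 FPKM in AOC11 and AOC11-LN. None of its windows occur in another gene, and its order of lines was that of H2-T22 and H2-T23.

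The Q region chains had the same order of lines as the T region chains and H2-M3, and varied most. H2-Q4 (ENSMUSG00000035929.11, chromosome 17, 35379617 to 35385290) had 5.06 and 0.863 FPKM in the lines AOC3 and AOC3-LN and 12.1 and 24.3 FPKM in AOC11 and AOC11-LN, so the lymph node lines stood 28.1-fold apart and the primary lines 2.39-fold apart. H2-Q7 (ENSMUSG00000060550.16, chromosome 17, 35439155 to 35443773), which encodes a Qa-2 antigen, had 0.750, 0.570, 0.949 and 6.47 FPKM. H2-Q6 (ENSMUSG00000073409.12, chromosome 17, 35424850 to 35430055) had 0.995, 0.696, 1.13 and 5.64 FPKM. In both genes AOC11-LN alone stood clear of the other lines, above AOC11 by 6.81-fold for H2-Q7. The values of H2-Q6 and H2-Q7 are not fully separate measurements, since 8.36% of the H2-Q6 windows also occur in H2-Q7 and 11.7% of the H2-Q7 windows in H2-Q6. In AOC3, AOC3-LN and AOC11 they rest on an estimated 16 to 129 fragments each, depending on the transcript assumed. H2-Q6 reached the 1 FPKM filter only in AOC11 and AOC11-LN, and H2-Q7 only in AOC11-LN, which fixes the direction of part of their differences.

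The AOC3 lines were then compared with the AOC11 lines, a comparison that the study used to ask how tumors of different mice differ. Of the 9 genes, 5 were higher in the AOC11 lines by more than 1 on the log2 scale (H2-Q4, H2-T23, H2-T22, H2-Q7 and H2-Q6), against 6.0% of the 14165 genes tested, and 0 were lower by that much, against 5.1%. H2-Q6 and H2-Q7 reached the filter only in AOC11 lines, so the filter favored this direction for them. The median difference of the 9 genes was 1.04, and that of all genes tested -0.01. H2-Q4 differed by 2.37 (standard error 0.63), H2-T23 by 1.56 (standard error 0.37), H2-T22 by 1.46 (standard error 0.30), H2-M3 by 0.96 (standard error 0.31) and B2m by 0.74 (standard error 0.40). H2-K1 differed by -0.003 (standard error 0.17). The 6 nonclassical chains had both AOC11 lines above both AOC3 lines, which 30.5% of all genes did, and H2-D1 had them below, which 22.5% of all genes did.

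By limma, with p-values adjusted over all 14165 genes after Benjamini and Hochberg, 0 of the 9 genes reached an adjusted p under 0.05, and 0.205% of all genes did. The lowest adjusted p in limma was 0.127 for H2-T22, followed by 0.151 for H2-T23 and 0.170 for H2-Q4, with 4 genes at an unadjusted p under 0.05. The fit describes the spread between a primary and a lymph node line of the same mouse, not between mice. Without AOC11-LN 3 genes passed the log2 threshold in place of 5, because H2-Q6 and H2-Q7 differed by 0.32 and 0.35, and B2m differed by 0.29. Without AOC3-LN the difference was 1.57 for H2-Q4, 1.04 for H2-T23, 0.62 for H2-M3 and 0.35 for B2m. Without AOC11 it was 1.76 for H2-Q6, 2.11 for H2-Q7 and 1.18 for B2m, and without AOC3 it was 1.12 for B2m.

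Fewer of the 9 genes differed past the threshold between the primary lines than between the lymph node lines. Between AOC11 and AOC3, 1 of 9 genes passed a log2 difference of 1 (H2-Q4, 1.09), against 5.69% of all genes, with H2-T23 at 0.9998 and H2-T22 at 0.97 just under it, and 0 genes passed -1, against 6.25%. The median of the 9 genes was 0.32. Between AOC11-LN and AOC3-LN 7 of 9 genes passed it, against 8.69% of all genes, and 0 passed -1, against 7.58%, with a median of 1.82. H2-Q4 differed there by 3.65, H2-Q7 by 2.13, H2-T23 by 2.12, H2-T22 by 1.95, H2-Q6 by 1.82, B2m by 1.57 and H2-M3 by 1.35. H2-Q7 reached the filter only in AOC11-LN, so its direction was fixed by it, and H2-Q6 reached it only in AOC11 lines. With a pseudocount of 0.1 in place of 1, H2-Q7 differed by 3.09 and H2-Q6 by 2.62, so that both exceeded H2-T23 (2.26) and H2-T22 (2.07). H2-K1 and H2-D1 stood at 0.16 and -0.16. These pairs are single libraries, so no test was made.

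**Figure D2:**
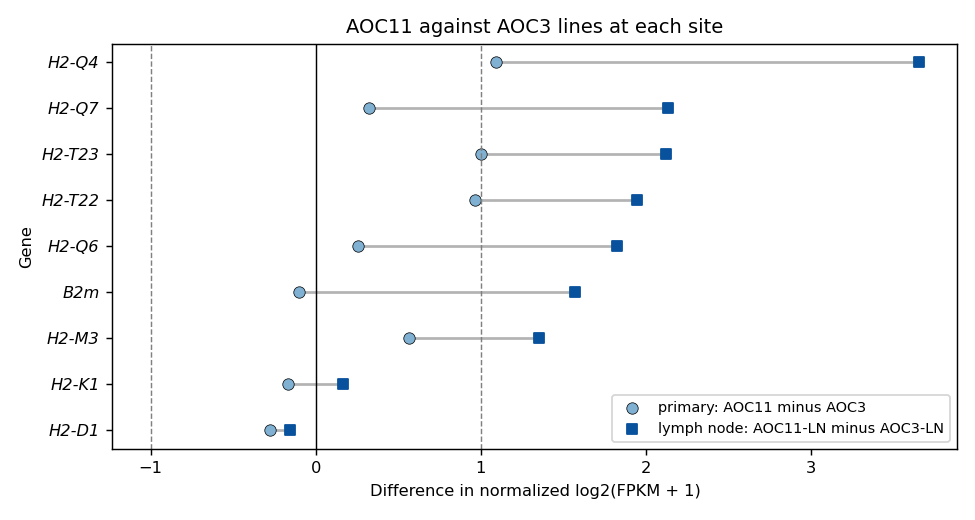
Difference in normalized log2(FPKM + 1) for each gene between the primary lines (circles) and between the lymph node lines (squares), with dashed lines at 1 and -1. H2-K1 and H2-D1 stay within 0.28 of 0 in both comparisons, and for the other 7 genes the lymph node difference is the larger, up to 3.65 for H2-Q4.

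The lymph node line was next compared with the primary line of the same mouse. All 9 genes were lower in AOC3-LN than in AOC3 and higher in AOC11-LN than in AOC11, a combination that 23.3% of the 14165 genes showed. H2-D1, with shifts of only -0.07 and 0.04, changed sign in AOC3-LN (0.05) when libraries were scaled by their median instead. In AOC3-LN 2 genes lay lower by more than 1 (H2-Q4, with a shift of -1.61, and H2-T23, with -1.04), against 3.42% of all genes, and 0 rose by more than 1, against 2.11%. The shift was -0.77 for B2m, -0.74 for H2-T22, -0.67 for H2-M3, -0.13 for H2-K1 and H2-Q6 and -0.05 for H2-Q7. H2-Q6 and H2-Q7 lay under 1 FPKM in both AOC3 lines, where a pseudocount of 1 shrinks a shift. With a pseudocount of 0.1 their shifts were -0.24 and -0.12. In FPKM, H2-Q4 was 5.87-fold, H2-T23 2.36-fold, H2-M3 2.08-fold, H2-T22 1.86-fold and B2m 1.69-fold higher in AOC3 than in AOC3-LN. In the same terms H2-Q6 was 1.43-fold, H2-Q7 1.32-fold, H2-K1 1.10-fold and H2-D1 1.03-fold higher.

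In AOC11-LN different genes moved most. H2-Q7 lay 1.76 and H2-Q6 1.44 above AOC11, and these were the 2 genes past the threshold, against 4.97% of all genes, with 0 past -1, against 3.14%. H2-Q7 reached the filter only in AOC11-LN, so its direction was fixed by it. H2-Q4 shifted by 0.96 and B2m by 0.89, while H2-T22 (0.24), H2-K1 (0.20), H2-M3 (0.12), H2-T23 (0.08) and H2-D1 (0.04) stayed within 0.25 of AOC11. The larger shift was that of mouse 3 for H2-T22, H2-T23, H2-M3 and H2-Q4 and that of mouse 11 for H2-Q6, H2-Q7 and B2m, and the difference between the mice was not tested. AOC3-LN is shared by this comparison and that of the lymph node lines, as is AOC11-LN, so their values are not independent.

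**Figure D3:**
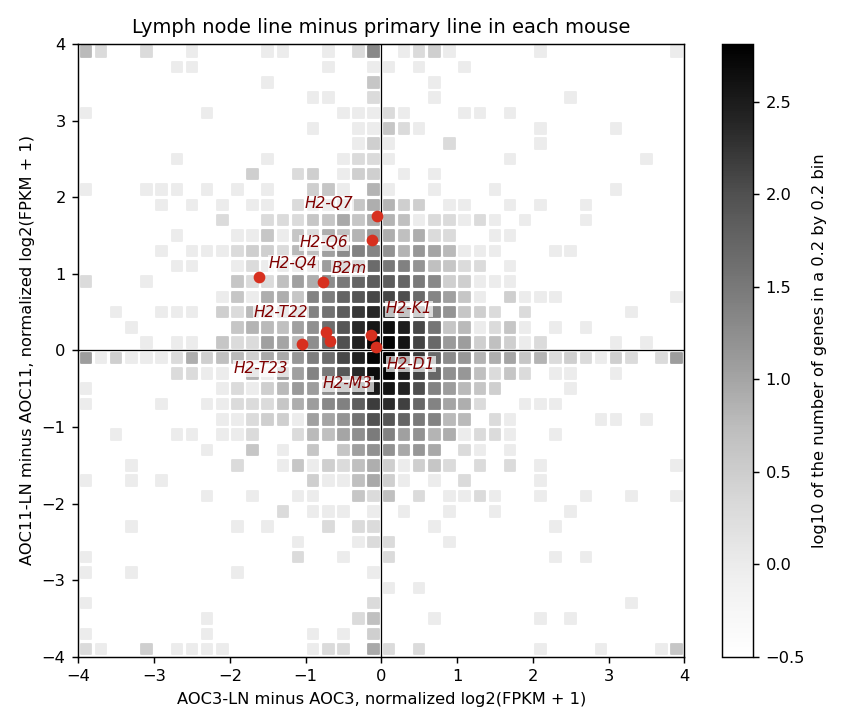
Lymph node line minus primary line in mouse 3 (horizontal) and mouse 11 (vertical), in normalized log2(FPKM + 1). Grey squares count the 14165 genes in bins, with values beyond 4 drawn at the edge, and red points are the 9 genes, which all lie in the upper left part, H2-D1 within 0.08 of the origin on both axes.

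Ratios within a library do not depend on how libraries were scaled. FPKM is per length, so the 8 heavy chains can be summed and set against B2m. The sum was 661 and 595 FPKM in the lines AOC3 and AOC3-LN and 636 and 731 FPKM in AOC11 and AOC11-LN, and H2-K1 with H2-D1 made up 94.0%, 97.0%, 87.4% and 85.0% of it. Divided by B2m, the sum was 1.44 and 2.19 in the lines AOC3 and AOC3-LN and 1.41 and 0.859 in AOC11 and AOC11-LN, so AOC11-LN was the line with less heavy chain than light chain transcript per length. The mean ratio was 1.47 ± 0.545 (SD, n = 4 lines). The 6 nonclassical chains together took 5.95% and 2.97% of it in AOC3 and AOC3-LN and 12.6% and 15.0% in AOC11 and AOC11-LN. H2-T23 was the largest nonclassical part in AOC3 (2.28%), AOC11 (5.03%) and AOC11-LN (4.58%), and H2-T22 in AOC3-LN (1.16%).

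**Figure D4:**
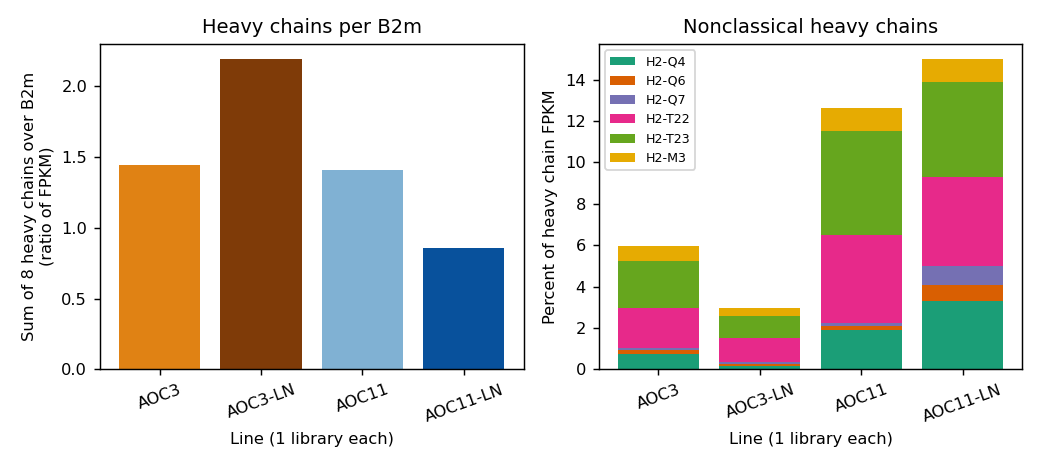
Left, the summed FPKM of 8 heavy chains divided by the FPKM of B2m in each line. Right, the 6 nonclassical chains as a stacked percent of heavy chain FPKM. The ratio is highest in AOC3-LN (2.19) and lowest in AOC11-LN (0.859), and the nonclassical part is smallest in AOC3-LN (2.97%).

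Pairs of members with the closest profiles over the 4 lines were H2-K1 with H2-D1 (Euclidean distance of line-centered normalized log2 values 0.25), H2-T22 with H2-T23 (0.27) and H2-Q6 with H2-Q7 (0.30), and the farthest were H2-D1 and H2-Q4 (2.88). Among 7567 other protein-coding genes with at least 10 FPKM in some line, those nearest to the median profile of the 9 genes were Pdlim1 (0.15), Sfxn3 (0.17), Ttc23 (0.18), Npdc1 (0.18) and Idnk (0.18). Nearest to H2-K1 were Stxbp2, Cebpzos and Ube2e3, at 0.0203, 0.0208 and 0.0237. Nearest to B2m were Tef (0.06), Thra (0.12) and Fdps (0.13). These distances rest on 4 libraries and are descriptions.

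Of 18 further class I heavy chain genes, 12 were in the table and 4 passed the filter. H2-T10, which shares windows with H2-T22, had 0.973 and 0.246 FPKM in the lines AOC3 and AOC3-LN and 1.79 and 3.58 FPKM in AOC11 and AOC11-LN and was the one past the threshold between the lines of the mice (1.17), having reached the filter only in AOC11 lines. H2-T24 had 1.98 to 2.90 FPKM and H2-Q1 1.45 to 1.74 FPKM. Of 5 class I-like genes whose products pair with B2m, Cd1d1, which presents lipids, was the one that passed the filter, at 1.42, 0.946, 0.219 and 2.05 FPKM. Of 7 class I-like genes without B2m 2 passed, and 1 of them, Procr, a receptor for protein C, went the other way, with 188 and 437 FPKM in the lines AOC3 and AOC3-LN and 76.6 and 68.9 FPKM in AOC11 and AOC11-LN and a log2 difference of -2.04 (standard error 0.43).

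Genes that make and load the peptides were read from a list of 17 genes, all of which passed the filter. Between the AOC11 and AOC3 lines 9 were higher by more than 1, against 6.0% of all genes, and 0 lower, against 5.1%, with a median of 1.24. Psmb9, Tap1 and Tap2 reached the filter only in AOC11 lines, so their direction was fixed by it. Between the primary lines 5 passed, against 5.69% of all genes, and between the lymph node lines 10, against 8.69%, with medians of 0.36 and 2.23. By limma 0 of 17 were called, against 0.205% of all genes. The 4 most abundant genes of the list were level, namely the chaperone Calr (441 to 484 FPKM), the constitutive proteasome subunits Psmb6 (276 to 357 FPKM) and Psmb7 (196 to 245 FPKM), and the disulfide isomerase Pdia3 (241 to 317 FPKM). The 10 genes that passed between the lymph node lines were the immunoproteasome subunits Psmb8, Psmb9 and Psmb10, the proteasome activator subunits Psme1 and Psme2, the transporter genes Tap1 and Tap2, the loading factors Tapbp and Tapbpl, and the trimming peptidase Erap1. Psmb8 was the gene of the list with the largest difference (3.21), at 1.84 and 0.0516 FPKM in AOC3 and AOC3-LN and 9.07 and 24.7 FPKM in AOC11 and AOC11-LN. In AOC3-LN 5 of the 17 genes were lower than in AOC3 by more than 1, against 3.42% of all genes, and in AOC11-LN 2 were higher than in AOC11 by more than 1, against 4.97%.

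**Figure D5:**
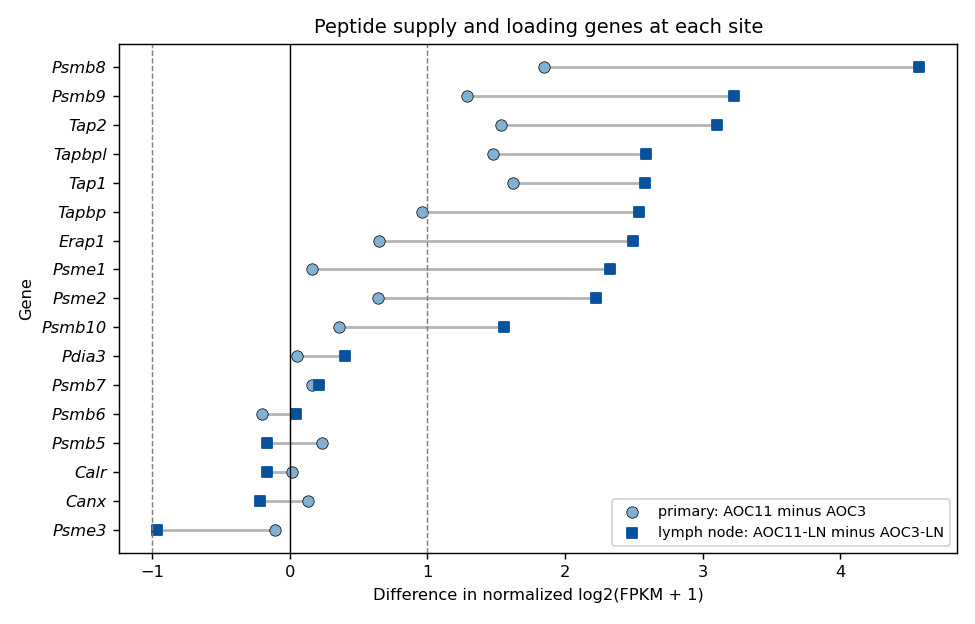
Differences in normalized log2(FPKM + 1) of 17 peptide supply and loading genes between the primary lines (circles) and between the lymph node lines (squares), with dashed lines at 1 and -1. The 10 upper genes lie past 1 between the lymph node lines, and the 7 lower genes, among them Calr and the constitutive subunits, do not.

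Of 18 genes for factors that act on class I promoters, 17 passed the filter. Nlrc5, the class I transactivator, lay at 0.126 and 0.193 FPKM in the lines AOC3 and AOC3-LN and 0.0259 and 0.203 FPKM in AOC11 and AOC11-LN, under the filter in all lines. Irf1, an interferon-induced activator that binds the ISRE, had 68.1, 21.1, 66.9 and 96.5 FPKM, so its primary lines were level and its lymph node lines apart, as for B2m. Past the threshold between the lines of the mice were 5 genes, all higher in the AOC11 lines, against 6.0% of all genes above 1 and 5.1% below -1. They were the NF-kB family genes Relb, Nfkb1 and Nfkb2, Rfx5 of the complex that binds the X box, and Irf9. The median of the 17 genes was 0.47.

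The members on chromosome 17 were set beside their neighbors. Between H2-K1 and H2-M3 lie 71 other protein-coding genes that passed the filter and belong to no antigen presentation list. Among them are Gm7030 and Gm11127, which share 100-base windows with class I members, so the neighbors are not free of class I-like sequence. Their differences were 0.16 and -0.12. Of the 71 neighbors 3 were higher in the AOC11 lines by more than 1, against 6.0% of all genes, and 1 lower, against 5.1%, with a median of -0.12. Of the 71, 17 were lower in AOC3-LN and higher in AOC11-LN than in the primary line, a share near the 23.3% of all genes. The largest differences among them were those of Ddah2, at 6.11 and 1.43 FPKM in the lines AOC3 and AOC3-LN and 41.9 and 32.3 FPKM in AOC11 and AOC11-LN, and Ly6g6c, at 0.0682, 0.00219, 3.12 and 4.53 FPKM, which reached the filter only in AOC11 lines. Among 12 housekeeping genes 0 passed the threshold between the lines of the mice, and their median was -0.01, while Actb had a log2 difference of 1.12 between the primary lines and -1.11 between AOC11-LN and AOC11.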

How the data were processed

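RNA was isolated with TRIzol, made into stranded mRNA libraries (TruSeq) and sequenced as paired-end reads. Per its methods, the study used Trim Galore for trimming, mm10 as the genome, and TopHat2 and Cufflinks with the GENCODE M21 annotation at default settings. The deposited values are the FPKM that the authors estimated so, without the log2 transformation and quantile normalization named in the methods. By default Cufflinks divides a read that maps to several places evenly among them, so values of near-identical chains can borrow from each other.

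Gene names, positions and transcripts were taken from GENCODE M21, on the build of the files. Log2(FPKM + 1) was quantile-normalized over all 34721 entries, and a gene was kept if any line had 1 FPKM or more, which left 14165. Genes were counted past log2 differences of 1 and -1. limma 3.58.1 in R 4.3.3 (lmFit, eBayes with trend, two-sided, Benjamini-Hochberg over all genes kept) compared the AOC11 with the AOC3 lines, with both lines of a mouse as replicates, and the script was tested on simulated data. The table gives no counts. Low FPKM values of 9528 genes with 1 transcript, multiplied by length, fell within 0.1 of whole multiples of a step for 63.8% to 67.0% of values (20% by chance), and the step gave the depth as an estimate. Shared sequence was measured as 100-base windows of the longest coding transcript that occur in a transcript of another gene.

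The members and lists were chosen with earlier results of these data known. Named genes were all members, up to 4 members of each other list by mean FPKM and set regulators, the nearest profiles, and the 2 neighbors of largest difference. Outside this rule, all genes of a list past a threshold, Psmb8 for its largest difference, Krt5, Cdh1, H2-Aa, H2-Ab1, H2-Eb1, Gm7030 and Gm11127 were named after their values were seen. Alternatives were another pseudocount, no quantile normalization, median scaling, other filters, protein-coding genes, limma without trend or with site as a block, and leaving out each line.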

Additional observations from a re-analysis of the deposited data

Results flagged for a closer look

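The shift from the primary to the lymph node line ran in opposite directions in the 2 mice for each of the 9 genes, and the difference between the mice was not tested, since each shift is 1 library against another. In normalized log2 units, AOC3-LN minus AOC3 and then AOC11-LN minus AOC11, the shifts were -0.13 and 0.20 for H2-K1, -0.0727 and 0.045 for H2-D1, -1.61 and 0.96 for H2-Q4, -0.13 and 1.44 for H2-Q6, and -0.0534 and 1.76 for H2-Q7. They were -0.74 and 0.24 for H2-T22, -1.04 and 0.0788 for H2-T23, -0.67 and 0.12 for H2-M3, and -0.77 and 0.89 for B2m. Of all genes tested, 23.3% moved in this combination of directions.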

How the results depend on the processing

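The number of genes past a log2 difference of 1 between AOC11 and AOC3 was 1, and became 3 with a pseudocount of 0.1, 3 without quantile normalization and 2 after median scaling, because H2-T23 and H2-T22 lie at the threshold. Leaving out 1 line at a time gave 3 to 7 genes past it between the AOC11 and AOC3 lines, with 3 without AOC11-LN and 7 without AOC3 or without AOC11. The shares of all genes past the threshold were not computed under these alternatives. H2-K1, whose difference was -0.003, took the other sign without quantile normalization (0.0555), without AOC3 (0.0637) and without AOC11 (0.0975), and ran from -0.104 to 0.0975 over the lines left out. With site as the replicate block, limma called 0 of 9 genes and 31 of all 14165, with a lowest adjusted p of 0.168 among the 9. Over all other settings with 4 lines, the lowest adjusted p of the 9 in limma ran from 0.0664 among protein-coding genes to 0.335 without a filter. With a pseudocount of 0.1 the differences of H2-Q6 and H2-Q7 between the lymph node lines moved to 2.62 and 3.09. The labels give the lines no replicate numbers beyond the site. The other counts of genes past the threshold, and the heavy chain sum over B2m, stayed within 1.5 times or 1 SD of the reported value. With 1 library per line, depth limits H2-Q6 and H2-Q7 most.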
